A study of Mus musculus with 6 samples.

Results

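Neuropeptide precursor genes were described here in whole mouse brain at E18.5, an embryonic day late in gestation. The 35 genes were chosen by symbol, from Oxt and Avp to Calca and Calcb, and all 35 were found among the 55359 annotated genes of the tables. The S156A group comprised 3 libraries from embryos carrying the PME-1 S156A allele, and the WT group 3 libraries from wild-type embryos of the same stage. PME-1 is a methylesterase that takes the methyl mark off the tail of the catalytic subunit of PP2A, a major serine and threonine phosphatase, and S156A replaces its active-site serine with alanine. Each library was a pool of 3 brains, so the spread between libraries is a spread between pools. The labels give neither strain, sex nor zygosity. RNA was sequenced from directional libraries, and levels are in the authors' deposited TPM, a measure corrected for transcript length and scaled to a common total. The tables hold annotated genes and newly assembled ones together, and the TPM of all rows summed to 1930907 to 1957567 per library. The annotated rows alone, used here, summed to 930907 to 957567, so a TPM is a relative level and not an exact share of a library's transcripts.

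Neuropeptides are made as larger precursors that are cut in the secretory pathway and released from dense-core vesicles. Each acts at its own G protein-coupled receptors, often far from the site of release. In the late embryonic brain several hypothalamic peptides mark small groups of neurons that will control water balance, feeding, arousal and the pituitary. Others, such as somatostatin and neuropeptide Y, mark widespread interneurons of cortex and striatum, and a further set lies mainly in the brainstem. The 35 genes were divided accordingly by their best known site, into 15 hypothalamic, 13 cortical and striatal and 7 brainstem genes. Many of them are expressed in more than 1 region, so the division is approximate.

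The libraries held between 3.15 and 4.14 aligned gigabases, as the deposited coverage and FPKM values together imply. Libraries also differed in tissue that is not brain. The summed level of 8 skeletal muscle markers was 6673 TPM in S156A replicate 1 and 45.1 to 48.0 TPM in the other S156A libraries, against 5925 TPM in WT replicate 3 and 18.47 to 771 TPM in the other WT libraries. The 13 anterior pituitary gene entries summed to 179 to 377 TPM in S156A libraries, against 20.8, 21.4 and 158 TPM in WT replicates 1, 2 and 3, with 2 of the 13 at 0 in all libraries. Growth hormone, Gh, made up most of this sum where it was high, with 310, 166 and 130 TPM in S156A replicates 1 to 3. In WT replicates 1 to 3 it was listed at 0, 1.69 and 97.1 TPM. Y-linked genes summed to 0.340, 40.2 and 43.3 TPM in S156A replicates 1 to 3, against 28.7, 65.0 and 54.7 TPM in WT replicates 1 to 3. Over all genes, 30 of 18893 were called at an adjusted p under 0.05, 16 higher and 14 lower in S156A. That split was 11 higher and 23 lower after scaling by the trimmed mean of M values, and 16 higher and 36 lower after quantile normalization. The first principal component, with 47.0% of the variance, set S156A replicate 1 and WT replicate 3 apart from the other 4 libraries.

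No neuropeptide precursor gene was called. The filter on a mean TPM of at least 1 passed 26 of the 35 genes, and 0 of these 26 had an adjusted p under 0.05 in limma, where 0.159% of all tested genes were called, 0.0847% as higher and 0.0741% as lower. The smallest adjusted p among them was 0.094, shared by Oxt and Tac1. An unadjusted p under 0.05 was found for 7 of them, Oxt, Hcrt, Gal, Avp, Tac1, Sst and Adcyap1, and all 7 had lower means in S156A. Among all tested genes 13.9% had an unadjusted p under 0.05, 8.41% with a higher and 5.5% with a lower mean in S156A. That all were lower depended on the filter. Without it 8 of the 35 genes had an unadjusted p under 0.05 by limma, 6 with lower means and 2, Npvf and Qrfp, with higher means. Avp was at 0.055 in that fit, where 3364 of 36715 genes had an unadjusted p under 0.05. Groups did not overlap for 6 of the 26 genes, in each case with every S156A library below every WT library. Over all tested genes 7.05% did so in that direction and 20.8% in either direction. The filter let Oxt, Hcrt and Agrp through on the strength of WT, since their S156A means were under 1 TPM, so these counts and medians describe the genes and support nothing by themselves.

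The division by region gave unequal medians. The 11 tested hypothalamic genes had a median log2 difference of -0.63, S156A minus WT on log2(TPM + 1), and 10 of the 11 had a difference below 0. The 12 tested cortical and striatal genes had a median of -0.30, with 8 below 0, and the 3 tested brainstem genes a median of 0.47, with 0 below 0. Over all tested genes the median was 0.09, with 38.3% below 0. With every gene of each group counted and no filter, the medians were -0.45, -0.27 and 0.12. Of the hypothalamic genes below the filter, Kiss1, Npvf and Qrfp then had differences above 0, and Nms one below 0. The difference between regions was not tested.

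**Figure D1:**
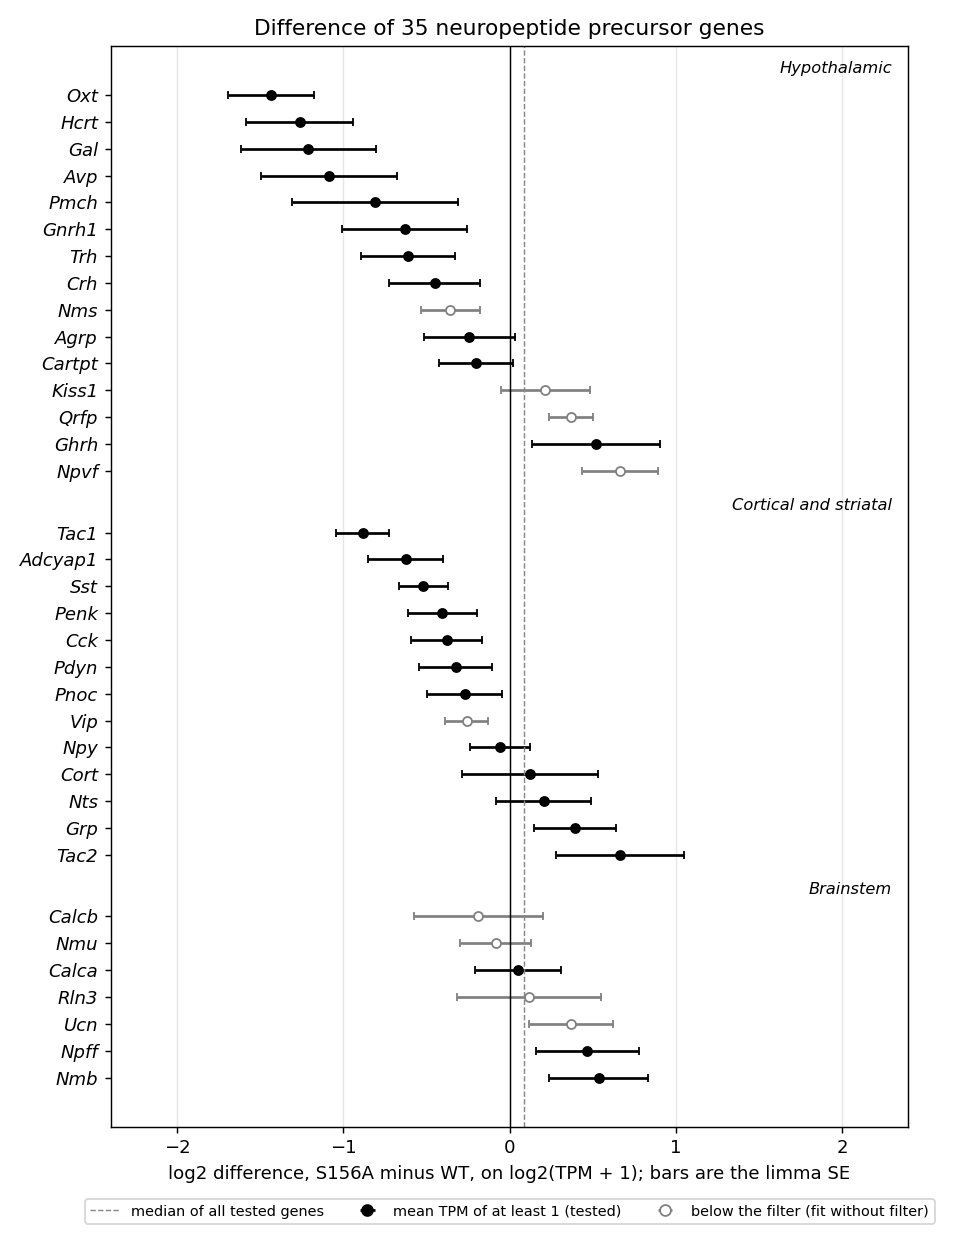
log2 difference of each of the 35 neuropeptide precursor genes, S156A minus WT on log2(TPM + 1), ordered by size within each region. Points are fitted differences and bars the limma standard error of 3 against 3 libraries, and open points are genes below the filter, from a fit without filter. Oxt, at -1.44, lies farthest to the left, and the dashed line is the median of all tested genes, 0.09.

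The posterior pituitary hormones oxytocin and vasopressin come from neighbouring genes on chromosome 2, Oxt (ENSMUSG00000027301.8, 130418093 to 130418974 in the files' coordinates) and Avp (ENSMUSG00000037727.7, 130422540 to 130424474). Their precursors share a neurophysin domain that is nearly the same in both. The transcript stretch from the first base of the hormone code to the end of the longest shared run is shown because reads from the shared part cannot be told apart by sequence. Capitals mark the run of 127 identical bases, and the first 27 bases code for the hormone and differ between the genes at 5 positions.
Oxt: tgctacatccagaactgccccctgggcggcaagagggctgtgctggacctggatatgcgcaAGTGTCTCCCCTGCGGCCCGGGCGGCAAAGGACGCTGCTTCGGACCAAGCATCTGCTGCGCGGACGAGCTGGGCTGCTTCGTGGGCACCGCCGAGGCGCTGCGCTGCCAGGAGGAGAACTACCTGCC
Avp: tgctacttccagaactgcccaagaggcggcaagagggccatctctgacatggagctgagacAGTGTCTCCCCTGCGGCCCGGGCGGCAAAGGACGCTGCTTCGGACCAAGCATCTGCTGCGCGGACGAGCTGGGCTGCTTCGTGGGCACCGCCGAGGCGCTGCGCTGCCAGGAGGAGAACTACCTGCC
The run makes up 23.6% of the Oxt transcript and 22.0% of the Avp transcript in GENCODE M21. No source used here says how the authors' assembly divided reads from it.

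Oxt was at 0.37, 0.33 and 0.21 TPM in S156A replicates 1 to 3, against 3.05, 2.43 and 2.17 TPM in WT replicates 1 to 3. The 3 S156A libraries were low and close together, and the groups did not overlap. The mean was 0.304 ± 0.0814 TPM in S156A and 2.55 ± 0.452 TPM in WT (SD, n = 3 each), a log2 difference of -1.44 (limma SE 0.26, adjusted p = 0.094). At such low values the size depends on the scale, and it was -2.72 with a pseudocount of 0.1, -0.51 with a pseudocount of 5 and -0.75 on log2(FPKM + 1). With the pseudocount of 5 and with FPKM the Avp difference, at -0.90 and -1.002, was the larger one. These are few reads, with a mean coverage per base of 0.307 to 0.486 in S156A libraries and 2.50 to 3.19 in WT libraries. Whether fewer oxytocin neurons or less RNA per neuron lay behind such a value cannot be told apart in bulk tissue, here or for any other gene below.

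Avp did not follow Oxt in all libraries. It was at 8.98, 12.8 and 32.9 TPM in S156A replicates 1 to 3, against 34.2, 37.0 and 32.6 TPM in WT replicates 1 to 3. The first and second S156A libraries were low, and the third lay within the WT range. The log2 difference was -1.09 (limma SE 0.41, adjusted p = 0.32), without S156A replicate 3 it was -1.60 (limma adjusted p = 0.19), and without S156A replicate 1 it was -0.72 (limma adjusted p = 0.45). Avp alone made up 27.2% to 49.6% of the summed hypothalamic peptide TPM in S156A libraries, against 41.9% to 47.2% in WT libraries.

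The lateral hypothalamus makes orexin, from Hcrt, which sustains wakefulness, and melanin-concentrating hormone, from Pmch. Hcrt was at 0.287, 0.831 and 0.218 TPM in S156A replicates 1 to 3, against 2.39, 1.63 and 3.47 TPM in WT replicates 1 to 3. All 3 S156A libraries lay below all WT libraries, at a coverage of 0.314 to 0.812 in S156A and 1.38 to 3.13 in WT. The log2 difference was -1.26 (limma SE 0.32, adjusted p = 0.19). Pmch was at 3.11, 1.34 and 8.81 TPM in S156A replicates 1 to 3, against 7.33, 8.39 and 5.49 TPM in WT replicates 1 to 3. S156A replicate 3 was the highest of all 6 libraries, and the groups overlapped, with a log2 difference of -0.81 (limma SE 0.50, adjusted p = 0.51). Without S156A replicate 2 that difference was -0.33, and without S156A replicate 3 it was -1.37. Pmch overlaps Parpbp on the opposite strand, and no source used here gives the strand setting of the quantification.

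Galanin, from Gal, is made in several hypothalamic nuclei and in the locus coeruleus. It was at 2.52, 1.99 and 6.28 TPM in S156A replicates 1 to 3, against 9.01, 12.6 and 5.94 TPM in WT replicates 1 to 3. As with Avp and Pmch, S156A replicate 3 was the highest of its group and reached the WT range. The log2 difference was -1.21 (limma SE 0.41, adjusted p = 0.27).

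**Figure D2:**
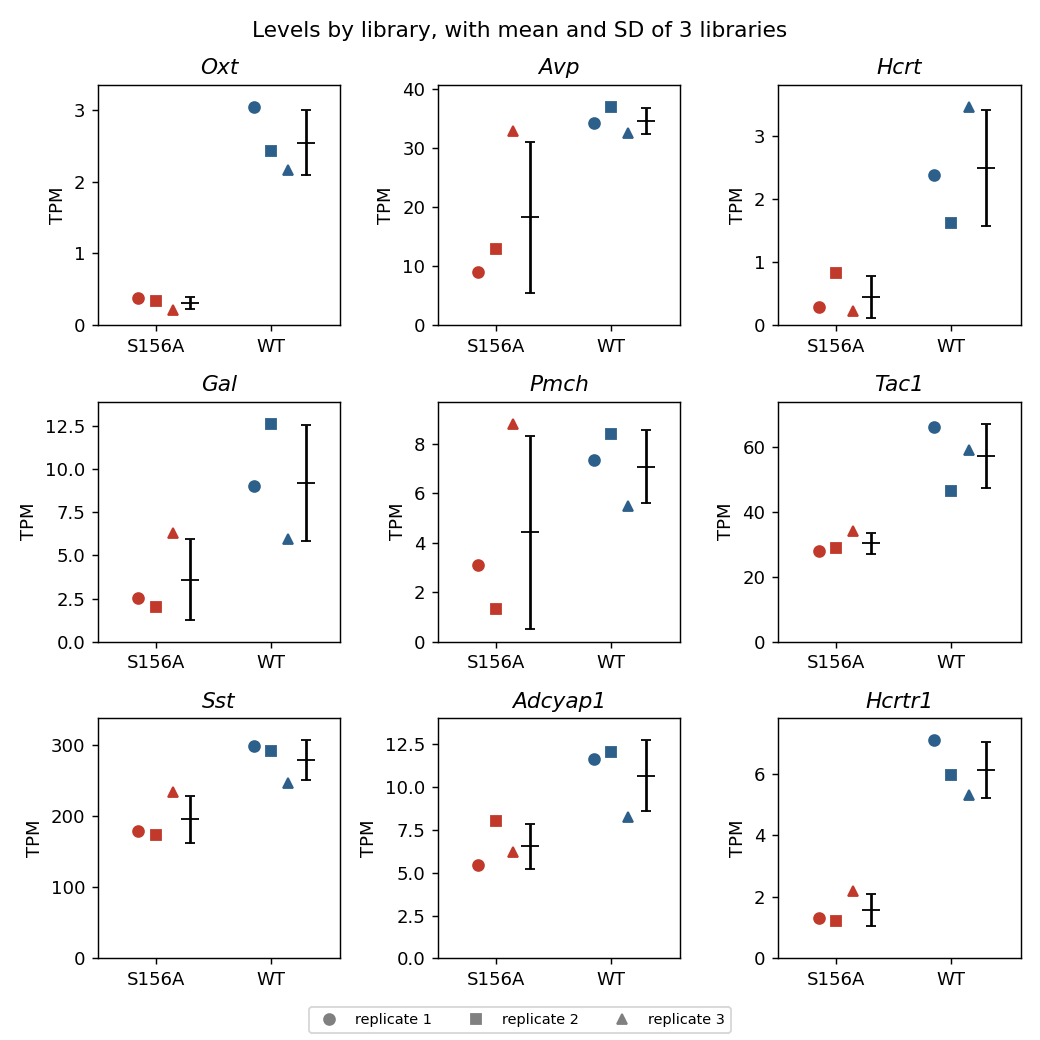
TPM of 8 precursor genes and of the orexin receptor gene Hcrtr1 in each library, on linear axes that start at 0. Symbols are replicates, and the bar beside each group is the mean ± SD of 3 libraries. S156A replicate 3 (triangle) lies within the WT range for Avp and Gal and above it for Pmch, and below every WT library for Oxt, Hcrt, Tac1, Sst, Adcyap1 and Hcrtr1.

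Releasing hormones of the hypothalamus act on the anterior pituitary. Trh, the precursor of thyrotropin-releasing hormone, was at 2.72, 3.15 and 3.44 TPM in S156A replicates 1 to 3, against 7.40, 5.43 and 3.51 TPM in WT replicates 1 to 3. The groups did not overlap, but the highest S156A and the lowest WT library were almost equal, and the log2 difference was -0.61 (limma SE 0.28, adjusted p = 0.39). Crh, the corticotropin-releasing hormone gene, was at 2.24, 1.76 and 1.90 TPM in S156A replicates 1 to 3, against 2.02, 3.80 and 3.57 TPM in WT replicates 1 to 3. WT replicate 1 lay inside the S156A range. Gnrh1, the gene of gonadotropin-releasing hormone, was at 3.38, 0.959 and 1.12 TPM in S156A replicates 1 to 3, against 4.11, 2.37 and 2.92 TPM in WT replicates 1 to 3. Here S156A replicate 1 stood with the WT libraries, and the log2 difference was -0.63 (limma SE 0.38, adjusted p = 0.50). Without S156A replicate 1 it was -0.999 (limma adjusted p = 0.30), and without S156A replicate 2 it was -0.42. The Trh difference was -0.40 without WT replicate 1. Ghrh, of growth hormone-releasing hormone, was the tested hypothalamic gene with a difference above 0, at 2.28 ± 0.882 TPM in S156A and 1.38 ± 1.08 TPM in WT (SD, n = 3 each). Its log2 difference of 0.52 (SE 0.38) ranged from 0.31 without WT replicate 3 to 0.87 without WT replicate 1.

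The arcuate peptides of feeding differed less. Agrp, which drives feeding, was at 0.776, 0.791 and 0.987 TPM in S156A replicates 1 to 3, against 1.49, 1.32 and 0.808 TPM in WT replicates 1 to 3. Its annotated interval overlaps several expressed genes on both strands, so its value is uncertain. Cartpt, whose peptide restrains feeding, was at 4.54, 6.42 and 7.48 TPM in S156A replicates 1 to 3, against 7.52, 7.26 and 6.52 TPM in WT replicates 1 to 3. S156A replicate 1 was the lowest for Cartpt, and the other libraries of both groups lay close together. Without S156A replicate 1 the Cartpt difference was -0.029, and without S156A replicate 3 it was -0.34. For Agrp it was -0.15 without WT replicate 1 and -0.38 without WT replicate 3. Neither gene's difference with all libraries, -0.24 (SE 0.27) and -0.20 (SE 0.22) on the log2 scale, was past the threshold (limma adjusted p = 0.74 and 0.73).

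Cortical and striatal peptides were far more abundant. Their 13 genes summed to 443, 474 and 566 TPM in S156A replicates 1 to 3, against 689, 640 and 579 TPM in WT replicates 1 to 3. The 15 hypothalamic genes summed to 33.0, 36.3 and 66.3 TPM in S156A and to 81.5, 84.6 and 69.1 TPM in WT. For both sums every S156A library lay below every WT library, by a small margin in S156A replicate 3. The 7 brainstem genes summed to 39.7, 28.9 and 34.3 TPM in S156A and to 31.4, 24.7 and 23.5 TPM in WT, and these groups overlapped. The 5 highest genes, Sst, Npy, Cck, Penk and Tac1, held 69.6% to 71.9% of the summed TPM of all 35 in S156A libraries and 71.5% to 75.4% in WT libraries.

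**Figure D3:**
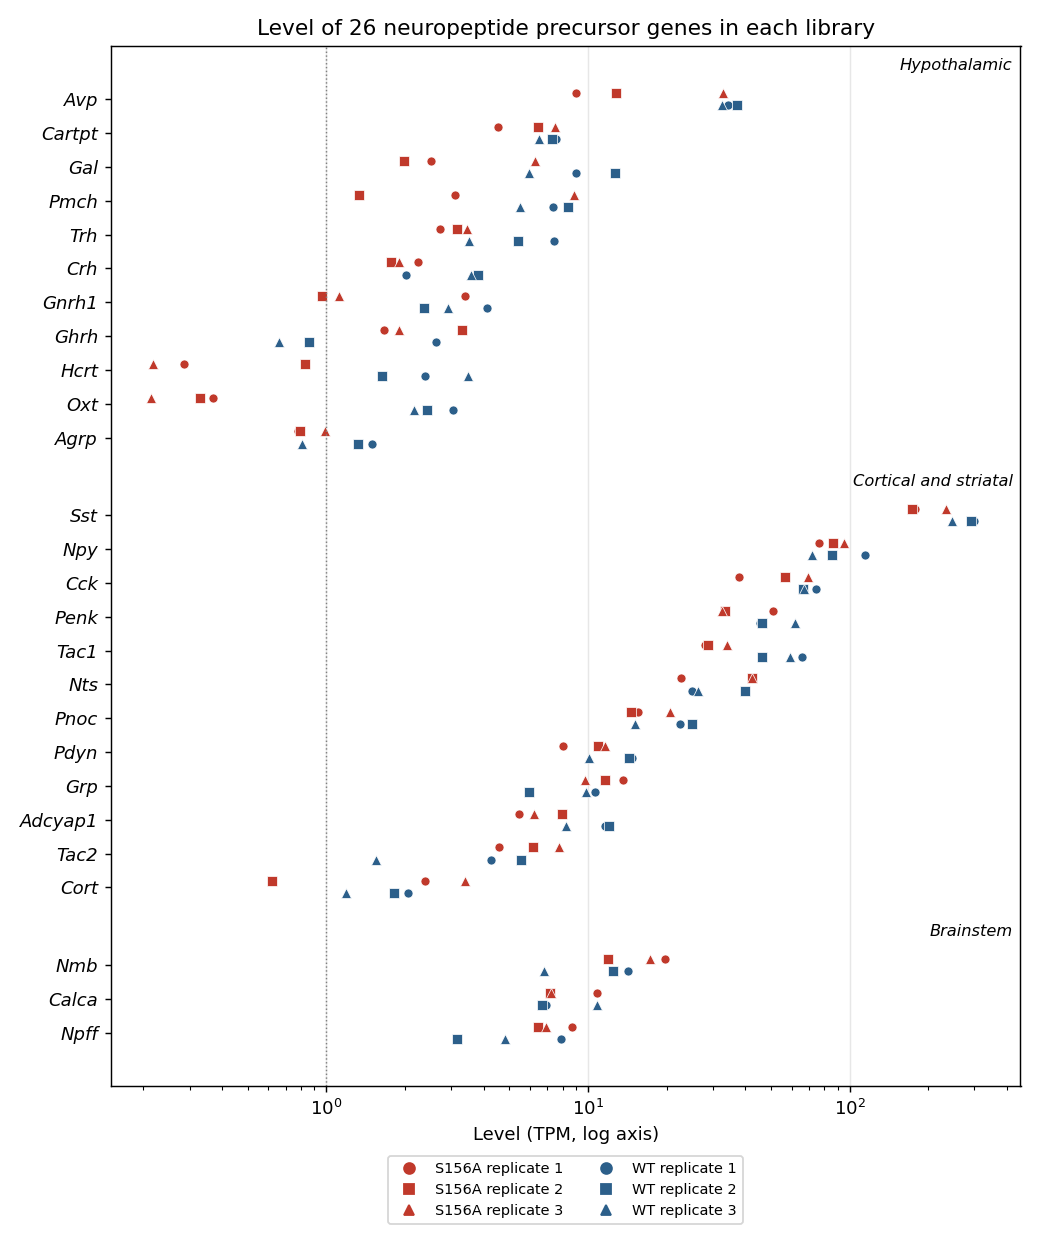
TPM on a log axis of the 26 tested genes in each of 6 libraries. Within a gene the S156A libraries are drawn above the WT libraries, symbols are replicates, and the dotted line marks 1 TPM. Levels run from 0.213 TPM for Oxt in S156A replicate 3 to 298 TPM for Sst in WT replicate 1.

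Sst (ENSMUSG00000004366.5, chromosome 16, 23708323 to 23709708 in the files' coordinates), the precursor of somatostatin, had the highest level of the 35 genes. It was at 178, 174 and 233 TPM in S156A replicates 1 to 3, against 298, 291 and 247 TPM in WT replicates 1 to 3. All S156A libraries lay below all WT libraries, and the mean was 195 ± 33.2 TPM in S156A and 278 ± 27.8 TPM in WT (SD, n = 3 each). The log2 difference was -0.52 (limma SE 0.15, adjusted p = 0.22). The other peptide of such interneurons, neuropeptide Y from Npy, was at 76.1, 86.7 and 94.9 TPM in S156A replicates 1 to 3, against 114, 85.5 and 72.0 TPM in WT replicates 1 to 3. The S156A values all lay inside the WT range, and the log2 difference of -0.06 (SE 0.18) turned to 0.12 without WT replicate 1. Cort, of the somatostatin-like peptide cortistatin, was at 2.13 ± 1.41 TPM in S156A and 1.68 ± 0.449 TPM in WT (SD, n = 3 each). Vip, which marks a later-maturing class of interneurons, was at 0.0642, 0 and 0.0798 TPM in S156A replicates 1 to 3, against 0.146, 0.124 and 0.523 TPM in WT replicates 1 to 3. Every S156A library lay below every WT library for Vip, but the gene was below the filter.

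Of 9 cortical interneuron markers 6 had a log2 difference above 0 and 3, Gad1, Sox6 and Npas1, one below 0. Lhx6, needed for the Sst class, was at 37.1 to 44.9 TPM in S156A libraries, against 22.6 to 29.5 TPM in WT libraries, a log2 difference of 0.70 (limma SE 0.15, adjusted p = 0.13). The 9 markers summed to 335 to 445 TPM in S156A and to 299 to 404 TPM in WT, with a median log2 difference of 0.22. The 2 highest of them were Dlx1, with a mean of 120 TPM in S156A and 89.4 TPM in WT, and Gad1, with 93.5 TPM in S156A and 112 TPM in WT. Of these 9 genes 0 were called and 2 had an unadjusted p under 0.05, both with higher means in S156A, where 8.41% of all tested genes were in that direction. The part of interneuron number in the Sst values was not tested.

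Tac1 (ENSMUSG00000061762.13, chromosome 6, 7554879 to 7565834 in the files' coordinates) encodes substance P and neurokinin A, found in striatal neurons of the direct pathway and in many brainstem nuclei. It was at 27.9, 28.8 and 34.0 TPM in S156A replicates 1 to 3, against 66.0, 46.3 and 58.9 TPM in WT replicates 1 to 3. The groups were well apart, and the mean was 30.3 ± 3.29 TPM in S156A and 57.1 ± 9.98 TPM in WT (SD, n = 3 each). The log2 difference was -0.88 (limma SE 0.16, adjusted p = 0.094). Leaving out any 1 library gave values from -1.03 to -0.77.

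Striatal opioid precursors differed less. Penk, the enkephalin precursor of the indirect pathway, was at 50.8, 33.4 and 32.4 TPM in S156A replicates 1 to 3, against 45.5, 46.4 and 61.6 TPM in WT replicates 1 to 3. Penk in S156A replicate 1 lay within the WT range, and the log2 difference was -0.40 (limma SE 0.21, adjusted p = 0.43). It was -0.61 without S156A replicate 1 (limma adjusted p = 0.25) and -0.27 without WT replicate 3. Pdyn, the dynorphin precursor, was at 8.02 to 11.7 TPM in S156A libraries and at 10.1 to 14.7 TPM in WT libraries. Pnoc, the nociceptin precursor, was at 16.9 ± 3.24 TPM in S156A and 20.8 ± 5.11 TPM in WT (SD, n = 3 each). The Pdyn difference of -0.33 was -0.18 without S156A replicate 1, and the Pnoc difference of -0.27 lay between -0.48 without WT replicate 3 and -0.13 without WT replicate 2. The 7 striatal markers summed to 191 to 292 TPM in S156A and to 216 to 270 TPM in WT, with a median log2 difference of -0.08 and 0 genes called. What part the share of striatum in each pool had in the Tac1 values was not tested.

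Among the remaining cortical and striatal genes, Adcyap1, the precursor of the peptide PACAP, was at 5.45, 7.98 and 6.19 TPM in S156A replicates 1 to 3, against 11.6, 12.0 and 8.27 TPM in WT replicates 1 to 3. The groups did not overlap, with S156A replicate 2 just under WT replicate 3, and the log2 difference was -0.62 (limma SE 0.23, adjusted p = 0.30). Cck, of cholecystokinin, was at 37.6, 56.6 and 69.6 TPM in S156A replicates 1 to 3, against 74.4, 66.5 and 66.9 TPM in WT replicates 1 to 3. S156A replicate 3 lay inside the WT range, and the log2 difference of -0.38 (limma SE 0.21, adjusted p = 0.48) was -0.14 without S156A replicate 1 and -0.57 without S156A replicate 3. Nts (neurotensin), Grp (gastrin-releasing peptide) and Tac2 (neurokinin B) had means above those of WT, with log2 differences of 0.21 (SE 0.29), 0.39 (SE 0.25) and 0.66 (SE 0.39), and overlapping groups. For Tac2 the S156A libraries held 4.59 to 7.74 TPM, against 1.55 to 5.54 TPM in WT libraries. Leaving out 1 library moved these sizes, and the difference was 0.26 without WT replicate 3 for Tac2, 0.16 without WT replicate 2 for Grp, and from 0.059 without S156A replicate 3 to 0.497 without S156A replicate 1 for Nts.

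Brainstem peptides gave no difference past the threshold in either direction. Calca, which encodes calcitonin gene-related peptide in motor and parabrachial neurons, was at 10.9, 7.16 and 7.21 TPM in S156A replicates 1 to 3, against 6.91, 6.67 and 10.8 TPM in WT replicates 1 to 3. The highest library of each group was the one with the most muscle RNA, S156A replicate 1 and WT replicate 3. The summed level of the 7 sensory ganglion markers was also highest there, at 15.5 TPM in S156A replicate 1 against 7.08 to 9.33 TPM in the other S156A libraries, and 34.4 TPM in WT replicate 3 against 7.42 to 9.34 TPM in the other WT libraries. Prdm12, a marker of pain-sensing neurons in that list, was lowest of its group in S156A replicate 1 and not highest in WT replicate 3. The part of peripheral tissue in the Calca values was not tested. Its relative Calcb, with which it shares a run of 61 identical bases, was at 0.191, 1.44 and 0.331 TPM in S156A replicates 1 to 3, against 0.490, 1.69 and 0.433 TPM in WT replicates 1 to 3. Replicate 2 was the highest for Calcb in both groups. Nmb, of the bombesin-like peptide neuromedin B, was at 19.6, 12.0 and 17.2 TPM in S156A replicates 1 to 3, against 14.2, 12.5 and 6.80 TPM in WT replicates 1 to 3. Npff, of neuropeptide FF, was at 7.35 ± 1.21 TPM in S156A and 5.30 ± 2.42 TPM in WT (SD, n = 3 each). Both pairs of groups overlapped, with log2 differences of 0.54 (SE 0.30) and 0.47 (SE 0.31). Without WT replicate 3 that of Nmb was 0.24, and that of Npff was 0.75 without WT replicate 1 and 0.20 without WT replicate 2. Nmb overlaps Sec11a and Npff overlaps Gm28047 on the same strand, so both values are less certain.

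The 9 genes below the filter, all with a mean under 1 TPM over the 6 libraries, were Kiss1, Npvf, Qrfp, Nms, Vip, Calcb, Ucn, Rln3 and Nmu. Npvf, of the RFamide-related peptides that restrain gonadotropin-releasing hormone neurons, was at 1.30, 1.04 and 0.397 TPM in S156A replicates 1 to 3, against 0.238, 0.331 and 0 TPM in WT replicates 1 to 3. Qrfp, a related RFamide gene, was at 0.310, 0.595 and 0.170 TPM in S156A replicates 1 to 3, against 0, 0 and 0.132 TPM in WT replicates 1 to 3. For both, every S156A library lay above every WT library, at a coverage of at most 1.71 per base for Npvf. In a fit without filter their adjusted p was 0.47 and 0.48 by limma. Rln3, the relaxin-3 gene of the nucleus incertus, spread from 0.103 to 2.12 TPM over the S156A libraries and from 0.363 to 1.31 TPM in WT. Ucn, of urocortin, was listed at 0 in all WT libraries and in S156A replicate 3, and at 0.116 and 0.933 TPM in S156A replicates 1 and 2. Kiss1 and Nmu lay between 0 and 0.987 TPM in every library, with overlapping groups, and Nms between 0 and 0.599 TPM.

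Many neuropeptide promoters carry the cAMP response element, a site first studied in the somatostatin gene and bound by CREB. Promoters from RefSeq (GRCm38.p6, 250 bases before to 50 after the annotated start) were at hand for 27 of the 35 genes, and were searched on both strands for TGACGTCA and for its shorter core TGACG, which the full site contains. The full site occurred in 3 of the 27 genes, Sst, Cartpt and Ucn, and in 2.03% of 27025 genes with a promoter. The core occurred in 15 of the 27, and in 23.0% of all genes. Of the 7 genes at an unadjusted p under 0.05, Sst, Tac1, Gal and Adcyap1 held the core, and Oxt, Avp and Hcrt did not. Sst and Cartpt are shown for the full site, and Tac1 for the core alone. Capitals mark TGACG or its reverse complement CGTCA, together with the rest of the full site.
Sst: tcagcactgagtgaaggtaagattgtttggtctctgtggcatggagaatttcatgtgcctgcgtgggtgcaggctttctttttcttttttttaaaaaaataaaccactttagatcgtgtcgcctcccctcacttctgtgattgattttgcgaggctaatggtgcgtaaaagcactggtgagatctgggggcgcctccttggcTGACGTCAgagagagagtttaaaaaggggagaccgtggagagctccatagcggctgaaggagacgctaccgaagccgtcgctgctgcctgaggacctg
Cartpt: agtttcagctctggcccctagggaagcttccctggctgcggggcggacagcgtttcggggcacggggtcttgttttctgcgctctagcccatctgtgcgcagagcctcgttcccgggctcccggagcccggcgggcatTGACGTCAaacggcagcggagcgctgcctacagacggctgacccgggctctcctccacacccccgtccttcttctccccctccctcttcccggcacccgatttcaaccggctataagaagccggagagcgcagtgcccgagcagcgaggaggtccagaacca
Tac1: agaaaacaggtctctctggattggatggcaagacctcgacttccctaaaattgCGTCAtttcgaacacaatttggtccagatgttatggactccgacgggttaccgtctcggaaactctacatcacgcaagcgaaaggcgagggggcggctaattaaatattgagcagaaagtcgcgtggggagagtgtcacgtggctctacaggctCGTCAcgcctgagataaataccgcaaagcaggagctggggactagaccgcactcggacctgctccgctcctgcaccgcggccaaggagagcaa
These are chr16:23890795-23891094 on the minus strand, chr13:99900634-99900933 on the minus strand and chr6:7554811-7555110 on the plus strand. The full site began at position -48 from the start in Sst and at -112 in Cartpt, and the cores of Tac1 at -197 and -43. The log2 differences of this trio were -0.52 for Sst, -0.20 for Cartpt and -0.88 for Tac1. A match of letters is a description of these windows, and binding was not measured.

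Receptors and processing enzymes were read from the same fit. Of 49 neuropeptide receptor genes 34 were tested and 0 were called, where 0.159% of all tested genes were called. An unadjusted p under 0.05 by limma was found for 2, both with lower means in S156A. Among all tested genes this share was 13.9%, with 5.5% lower. The median log2 difference of the receptors was -0.24, against 0.09 over all tested genes. Hcrtr1, the orexin receptor of the locus coeruleus, was at 1.32, 1.22 and 2.18 TPM in S156A replicates 1 to 3, against 7.08, 5.95 and 5.31 TPM in WT replicates 1 to 3. All 3 S156A libraries lay below all WT libraries, with a log2 difference of -1.48 (limma SE 0.25, adjusted p = 0.081). Oprk1, the dynorphin receptor, was at 0.943 ± 0.551 TPM in S156A and 2.70 ± 1.42 TPM in WT (SD, n = 3 each), with a log2 difference of -0.90 (limma SE 0.36, adjusted p = 0.34). The next by p were Cckbr, Kiss1r, Rxfp3 and Npy5r, receptors for cholecystokinin, kisspeptin, relaxin-3 and neuropeptide Y, with log2 differences of -0.62, -0.45, -0.44 and -0.50. Oprk1, Npy5r, Oprd1 and Qrfpr passed the filter through WT, since their S156A means were under 1 TPM. The receptor count and median therefore support nothing by themselves. Without filter the unadjusted p of Oprk1 was 0.056 by limma. Of the 7 processing genes 0 were called. Pcsk1n, an inhibitor of the prohormone convertase encoded by Pcsk1, was at 218 ± 50.3 TPM in S156A and 326 ± 41.6 TPM in WT (SD, n = 3 each). Its log2 difference was -0.59 (limma SE 0.18, adjusted p = 0.24). The convertase genes Pcsk2 and Pcsk1 had differences of -0.29 and -0.45, and Pam, of the amidating enzyme, one of 0.37 (limma adjusted p = 0.47, 0.50 and 0.54).

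Markers of hypothalamic tissue were set beside the hypothalamic peptides. All 10 hypothalamic transcription factor genes were detected, and they summed to 51.9 to 63.7 TPM in S156A and to 58.3 to 87.3 TPM in WT. Of the 6 tested, 4 had a log2 difference below 0 and 2 above, with a median of -0.57 and 0 called, and without filter the median of all 10 was -0.12. Groups did not overlap for 6 of the 10, with S156A below WT for Otp, Fezf1, Hmx2 and Nr5a1 and above WT for Rax and Six6. Over all tested genes this held for 20.8%, 7.05% with S156A below WT and 13.7% with S156A above. Nr5a1 was below the filter, and Hmx2 passed it through WT, with means of 0.804 TPM in S156A and 1.40 TPM in WT. Rax averaged 0.866 TPM in S156A and 0.0526 TPM in WT, and Six6 0.858 TPM in S156A and 0.527 TPM in WT, both below the filter. Otp, which neurons making Oxt, Avp, Trh and Crh need to form, was at 7.31, 9.38 and 8.98 TPM in S156A replicates 1 to 3, against 23.0, 15.8 and 13.6 TPM in WT replicates 1 to 3. Its log2 difference was -0.92 (limma SE 0.23, adjusted p = 0.18), and that of Fezf1, a factor of the ventromedial hypothalamus, -0.81 (limma SE 0.20, adjusted p = 0.18). The 2 highest of the list had slightly higher means in S156A, with overlapping groups, Six3 lying at 25.5 TPM in S156A and 22.9 TPM in WT and Nkx2-1 at 16.3 TPM in S156A and 15.4 TPM in WT. Hindbrain and cord genes summed to 33.9 to 44.5 TPM in S156A and to 67.4 to 77.6 TPM in WT. In that list Hoxb5 was called, with a log2 difference of -1.18 (limma SE 0.13, adjusted p = 0.045), though 0 genes of any kind were called without S156A replicate 2, S156A replicate 3 or WT replicate 2. Motor neuron markers summed to 29.6 to 38.4 TPM in S156A and to 25.6 to 43.1 TPM in WT. Isl1 made up most of this sum, with a log2 difference of 0.51 and overlapping groups. For Chat, Slc5a7 and Slc18a3 every S156A library lay below every WT library. Their log2 differences were -0.67, -0.41 and -0.82 (limma adjusted p = 0.35, 0.46 and 0.33). Chat and Slc18a3 overlap on the same strand, so both values are less certain. Microglial markers summed to 322 to 380 TPM in S156A and to 110 to 188 TPM in WT. Cortical projection neuron markers summed to 492 to 839 TPM in S156A and to 384 to 429 TPM in WT. How the share of hypothalamus, hindbrain, cortex or pituitary in each pool bears on the peptide values was not tested. Pituitary sums were higher in every S156A library, at 179 to 377 TPM, than in WT libraries, at 20.8 to 158 TPM. A fit with a pituitary term therefore cannot tell pituitary share from genotype.

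**Figure D4:**
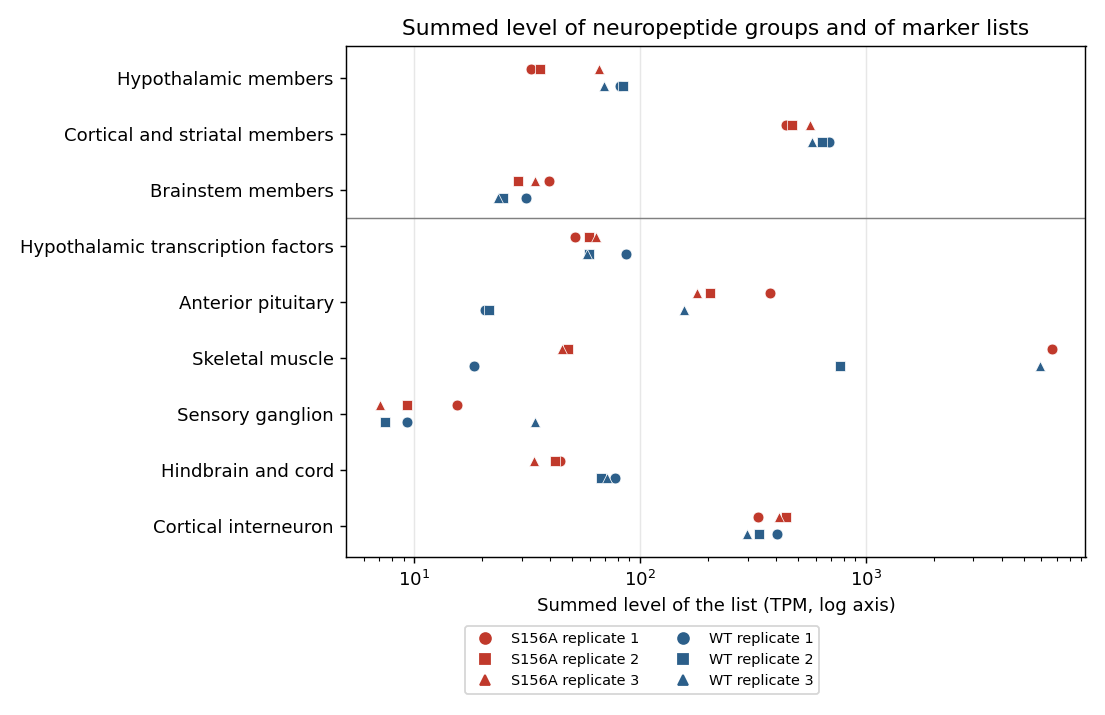
Summed TPM, on a log axis, of the 3 groups of neuropeptide genes (above the line) and of 6 marker lists (below it) in each library, with S156A drawn above WT and symbols for replicates. The hypothalamic peptide sum lies between 33.0 and 66.3 TPM in S156A and between 69.1 and 84.6 TPM in WT, and the muscle, sensory ganglion and pituitary sums spread widely between libraries of 1 group.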

How the data were processed

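The authors' deposited tables, 1 per library, hold a gene's coverage, FPKM (fragments corrected for length and depth) and TPM, per the file headers. Trim Galore (0.6.6), the aligner HISAT2 (2.2.1) and the assembler StringTie (2.1.5) were used, per the submitters' processing notes. A human build, hg38, is listed there too, although the annotated rows have mouse Ensembl identifiers. Only 4.15% of 52083 matched genes began within 1000 bases of their GRCm38 position, so coordinates are given as deposited. No source used here gives the annotation release or the strand setting.

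Only annotated genes were used, and rows sharing an identifier were summed. The tables hold no counts, so no counting intervals are given. Depth was taken from the commonest ratio of coverage to FPKM, held by 14.0% to 14.7% of rows with high FPKM.

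Genes averaging 1 TPM or more were tested on log2(TPM + 1) with limma 3.58.1 in R 4.3.3 (eBayes with trend, two-sided, no covariate), with Benjamini-Hochberg adjustment over all 18893 genes and a threshold of 0.05. Differences on this scale understate those of low genes. Labels do not say whether pools came from separate litters. The p-values set each group difference against the spread between these pools, with variances moderated across genes.

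The members, lists and regions were chosen with earlier results of these data known. Values in each library are given for members with an unadjusted p under 0.05, with groups that did not overlap, with a mean TPM of at least 50, or well known. Receptors and processing genes were named by smallest p, markers by highest level. Lhx6, Otp, Fezf1, Rax, Six6, Prdm12, Gh and further genes of these lists were named after their values were seen. Alternatives were FPKM, pseudocounts of 0.1 and 5, other filters, scalings and variance settings, a replicate block, each library left out, both libraries of high muscle RNA left out, and Y-linked or pituitary level as a covariate.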

Additional observations from a re-analysis of the deposited data

How the results depend on the processing

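Under 20 alternatives 0 members and 0 receptor or processing genes were called in any fit, and the smallest adjusted p of a member was 0.054, for Oxt by limma. Tac1 kept an unadjusted p under 0.05 in all 20 alternatives, Sst in 19, Gal and Adcyap1 in 14 and Avp in 11. These genes were picked by that p in the main fit, and the alternatives use the same libraries. Their counts describe the fits and are not independent support. The same count for Oxt and Hcrt is not given, since they also passed the filter only through WT. In all, 20 of the 26 genes kept their direction. The direction turned for Calca with the trimmed mean of M values (-0.017), quantile normalization (-0.071), the Y-linked term (-0.10), the pituitary term (-0.40) and without S156A replicate 1, WT replicate 1 or WT replicate 2 (-0.13 to 0.25 with 1 library left out). It turned for Npy without S156A replicate 1 or WT replicate 1 (-0.21 to 0.12 with 1 library left out) and with the pituitary term (0.25), and for Cort without S156A replicate 3 or WT replicate 3 (-0.18 to 0.54 with 1 library left out) and without both libraries of high muscle RNA (-0.13). With the pituitary term it also turned for Agrp (0.0066), Pdyn (0.041) and Pnoc (0.11), and the cortical and striatal median was 0.077. Pituitary level largely went with the group, so fits with that term cannot tell it from genotype. The hypothalamic median was -0.94 and -0.35 with pseudocounts of 0.1 and 5, and -0.95 at a mean TPM of at least 5. The brainstem median was 0.12 without filter, 0.10 without both libraries of high muscle RNA, and 0.20 to 0.73 with 1 library left out. With 1 library left out 4 (without WT replicate 2) to 8 members had an unadjusted p under 0.05. Over all genes the 30 calls became 0 without filter, 52 with quantile normalization (16 higher, 36 lower), 16 without trend, 1 with the Y-linked term, 0 with the pituitary term, 0 without both libraries of high muscle RNA and 0 to 70 with 1 library left out (70 without WT replicate 3). These fits had 1542 to 3364 genes with an unadjusted p under 0.05. The cause was not tested. With replicate number as a block 0 genes were called (1880 had an unadjusted p under 0.05) and 6 members had an unadjusted p under 0.05. Deviations of same-numbered libraries correlated at -0.55, 0.19 and -0.41, and those of S156A replicate 1 and WT replicate 3 at 0.65. With 3 libraries per group and uneven muscle RNA, such values cannot show whether the numbers pair the libraries. Low coverage limits Oxt, Hcrt and the 9 genes below the filter.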

Other observations

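Ratios within a library, chosen after their values were seen, do not depend on the scaling of the library. The ratio of Oxt to Avp TPM was 0.041, 0.026 and 0.0065 in S156A replicates 1 to 3, against 0.089, 0.066 and 0.066 in WT replicates 1 to 3. Oxt was near the floor in S156A libraries, at 0.213 to 0.370 TPM, and passed the filter only through WT. How reads from the run it shares with Avp were divided is not known. The ratio of Tac1 to Penk TPM was 0.549, 0.863 and 1.05 in S156A replicates 1 to 3, against 1.45, 0.998 and 0.956 in WT replicates 1 to 3, so these groups overlapped. Somatostatin alone held 32.3% to 35.01% of the summed TPM of the 35 genes in S156A libraries and 36.7% to 38.8% in WT libraries.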
